A study of Mus musculus with 24 samples.

Results

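The dorsal root, the bundle of central branches through which sensory neurons of the dorsal root ganglia reach the spinal cord, was compared at 5 weeks and 3 weeks of age in C57BL/6 mice. The comparison used 6 of the 24 arrays of the series, 3 labelled afferent nerve (AN) at 5 weeks (5W) and 3 labelled AN at 3 weeks (3W), and the members were taken from these labels alone. The labels name no genotype other than the strain and no treatment, the roots came from spinal segments L4 to L6 after the arachnoid was peeled off, and both sexes were used. The study also sampled birth (P0) and 1 week (1W), and the ventral root, the bundle of motor axons labelled efferent nerve (EN), with 3 arrays for each root and age. The methods pooled the roots of the animals of each age by root, and what separated the 3 arrays of a group was given only as independent experiments, so the p-values measure the spread between arrays, which may be technical.

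A dorsal root holds axons, the Schwann cells that ensheathe and myelinate them, fibroblasts, vessels and resident macrophages, while the sensory cell bodies lie in the ganglion outside it. Schwann cells proliferate before and around birth, leave the cell cycle as they form myelin, and afterwards keep the sheath. Macrophages and other antigen-presenting cells settle in peripheral nerve and its roots during postnatal life. RNA in such a root comes mainly from the resident cells and less from axons.

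Levels are log2 signals of the quantile-normalized table that the authors deposited. A probe was tested where it was well above background on all 3 arrays of either age, which held for 34256 of 56605 gene probes (60.5%). Changes are 5W minus 3W in log2 units with the standard error of the limma fit, and a probe was called where its unadjusted p was below 0.05 and its change above 2-fold. In that fit 1086 probes (3.17% of those tested) were called, 717 higher at 5W (2.09%) and 369 lower (1.08%), and 3555 (10.4%) had an unadjusted p below 0.05. After Benjamini-Hochberg adjustment over all tested probes 6 (0.0175%) remained below 0.05, 4 higher and 2 lower. The called probes with a gene symbol stood for 714 genes of 16197 tested.

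The arrays of an age were not alike. All 3 arrays of 3W lay on slide 4, and of the 5W arrays replicate 3 lay on slide 4 while replicate 1 was on slide 2 and replicate 2 on slide 3. All arrays of P0 and 1W lay on slides 1 to 3, so their differences from 3W cannot be told apart from slide and scan batch. From 62.3% to 70.1% of spots passed the scanner's test against background, median signals ran from 45.4 to 170.7 units over local backgrounds of 24 to 44, and 0 spots were saturated. Over the tested probes replicates 1 and 2 of 3W correlated at 0.992, while replicate 3 of 3W correlated with them at 0.966 and 0.963. Without replicate 3 of 3W, 1114 probes were called, of which 812 were among the 1086. Without replicate 3 of 5W the count rose to 2084, and 0 probes passed adjustment when any array was left out. With the slide as a block, a fit in which only replicate 3 of 5W is set against the 3W arrays, 1525 probes were called and 568 of the 1086 were among them. Of the 1086 called probes, 1084 changed in the same direction within slide 4 and 649 (59.8%) by more than 2-fold, in a comparison that includes the 3W arrays and 1 of the 5W arrays of the fit itself.

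What the arrays held besides Schwann cell RNA differed from array to array. The 10 Schwann cell markers (among them Mbp, Prx and Sox10) were well above background on all 6 arrays, with a mean log2 signal of 15.98 to 16.18 at 3W and 16.30 to 16.49 at 5W. The 10 markers of sensory neurons, whose cell bodies lie in the ganglion, averaged 9.46, 9.10 and 13.30 on the 3W arrays and 10.62, 9.45 and 7.48 on the 5W arrays. Calca, which encodes the neuropeptide CGRP, stood at 11.32, 10.75 and 16.50 at 3W and 13.66, 12.33 and 8.64 at 5W. Replicate 3 of 3W was thus the highest of the 6 arrays and replicate 3 of 5W the lowest, and the ages overlapped. The 12 skeletal muscle markers, present on all arrays, averaged 12.35, 9.99 and 13.16 at 3W and 12.54, 9.09 and 8.99 at 5W. The 6 spinal interneuron markers averaged 6.63, 7.02 and 8.05 at 3W and 6.81, 8.79 and 6.37 at 5W, highest on replicate 2 of 5W. In a bulk sample fewer cells of a type and less RNA per cell cannot be told apart.

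**Figure D1:**
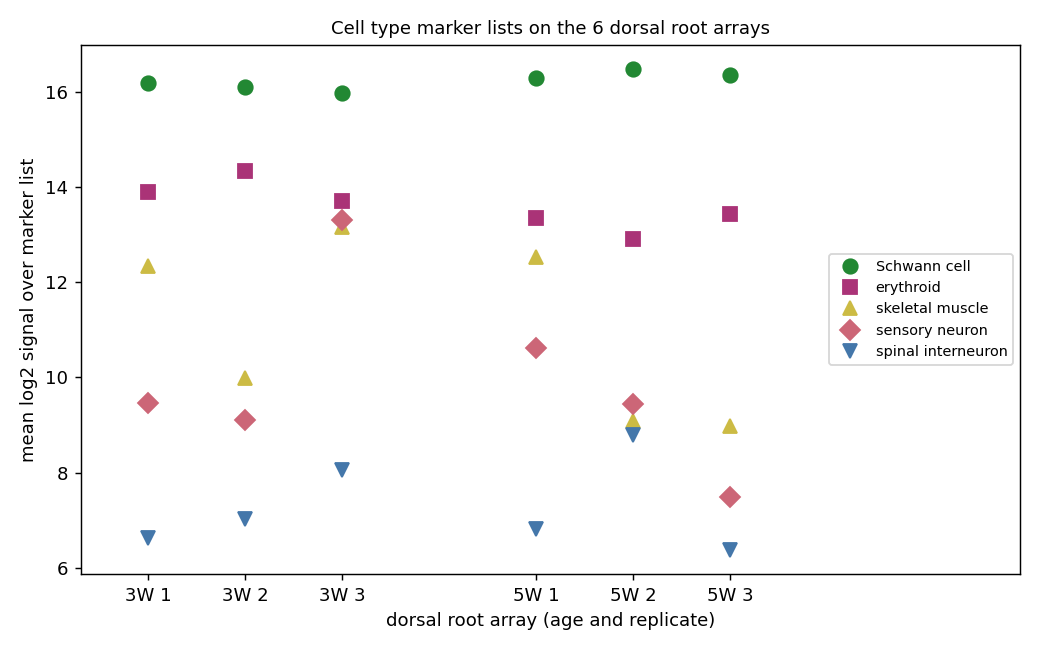
Mean log2 signal of 5 cell type marker lists on the 3 arrays of 3W and the 3 arrays of 5W (x axis: age and replicate). The Schwann cell list keeps within 15.98 to 16.49, while the sensory neuron list spans 7.48 to 13.30 and is highest on replicate 3 of 3W.

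The genes of cell division fell between 3 and 5 weeks. Of 46 genes in the list of cell cycle and DNA replication, 45 were tested, 20 were called lower at 5W and 0 higher, against 1.08% of all tested probes called lower. The median change of the list was -0.90, while that of all tested probes was -0.02. Of the 45, 44 had a lower mean at 5W. Without replicate 3 of 3W 23 members were called lower, where 1.2% of all tested probes were. With the slide as a block the median change of the list was -0.90. In a limma fit over all 24 arrays 26 had an adjusted p below 0.05, where 1.56% of tested probes did so in this direction.

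The largest falls in the list were those of Bub1, Cdk1, Melk and Ccnb1. Bub1, a kinase of the spindle checkpoint, had log2 signals of 6.90, 7.00 and 6.44 at 3W and 4.78, 4.44 and 5.25 at 5W. The ages did not overlap, and at 5W only 1 of 3 arrays was well above background, so the change of -1.96 (SE 0.27, limma adjusted p = 0.0939) rests on dim values. Cdk1, the kinase that drives entry into mitosis, stood at 8.29, 8.42 and 8.02 at 3W and at 6.60, 6.50 and 6.60 at 5W. The change of Cdk1 was -1.67 (SE 0.18, limma adjusted p = 0.0675), a 3.19-fold lower signal with little spread inside either age. Ccnb1, the cyclin B1 partner of Cdk1, went from 9.02, 9.12 and 8.51 to 7.67, 6.95 and 7.28, again without overlap, a change of -1.58 (SE 0.26).

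Further called members covered later steps of division, nucleotide supply and DNA methylation. Melk, a mitotic kinase, changed by -1.65, Ccna2 and Ccnb2, cyclins A2 and B2, by -1.40 and -1.39, and Mki67, the usual marker of cycling cells, by -1.24. Top2a, which untangles DNA strands, changed by -1.53, Tk1 and Rrm2, enzymes of nucleotide supply, by -1.35 and -1.08, and Uhrf1, which helps copy DNA methylation, by -1.43. Kif11, Kif20a, Cenpe, Cenpf, Nuf2, Nusap1, Prc1, Birc5 and Tpx2, which act on the spindle, kinetochore or midzone, changed by between -1.41 and -1.12. The tested parts of the replication machinery, Mcm2 to Mcm7, Pcna, Cdc6, Cdt1, Cdc45, Gins1 and Gins2, were not called, with changes of between -0.78 and -0.04. Also not called were the mitotic kinases Aurka, Aurkb, Bub1b, Plk1 and Ttk, with changes of between -0.91 and -0.49. Cdc20, Kif23, Ect2, Spc25, Ndc80, Hmmr and Tyms were not called either, at between -0.92 and -0.01. Of the brightest members of the list, Pcna, the sliding clamp of DNA polymerase, Mcm6, a helicase subunit, and Anln, a scaffold of the dividing furrow, had changes of -0.04 (SE 0.17), -0.68 (SE 0.26) and 0.23 (SE 0.28). Kif2c, a kinesin outside the list that was among the 10 largest falls, stood at 5.43, 6.05 and 5.21 at 3W and was not well above background at 5W (0 of 3 arrays), a signal at least 2.10-fold lower (limma adjusted p = 0.0815). Kif2c entered the test only through 3W, and its adjusted p rests on 5W values below background.

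Promoters of called cell cycle genes are shown because these genes moved together. Many genes of mitosis are known to carry a cell cycle homology region (CHR) and others an E2F motif near the start. The windows are the 250 bases before the RefSeq start on GRCm38.p6, 5′ to 3′ on the gene's strand, with matches in capitals. The CHR was searched as TTTGAA and the E2F motif as TTTNNCGC, on both strands. Cdk1 lies at chr10:69352913-69353162 (minus strand), Top2a at chr11:99024190-99024439 (minus strand), Uhrf1 at chr17:56303087-56303336 (plus strand) and Ccnb2 at chr9:70421555-70421804 (minus strand).
Cdk1: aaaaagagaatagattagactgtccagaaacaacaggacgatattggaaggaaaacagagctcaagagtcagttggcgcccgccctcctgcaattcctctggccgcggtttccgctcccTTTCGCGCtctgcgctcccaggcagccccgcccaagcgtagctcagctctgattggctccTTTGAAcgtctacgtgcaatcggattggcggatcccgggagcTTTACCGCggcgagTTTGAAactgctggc
Top2a: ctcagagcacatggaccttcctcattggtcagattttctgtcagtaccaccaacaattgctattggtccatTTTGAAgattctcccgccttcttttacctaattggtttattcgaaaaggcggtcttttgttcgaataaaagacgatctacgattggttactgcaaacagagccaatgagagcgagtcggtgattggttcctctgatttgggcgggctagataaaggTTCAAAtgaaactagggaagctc
Uhrf1: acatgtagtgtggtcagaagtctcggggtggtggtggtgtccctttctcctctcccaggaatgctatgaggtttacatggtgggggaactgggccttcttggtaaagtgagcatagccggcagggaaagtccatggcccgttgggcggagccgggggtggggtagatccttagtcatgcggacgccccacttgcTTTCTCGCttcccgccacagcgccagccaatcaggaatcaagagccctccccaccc
Ccnb2: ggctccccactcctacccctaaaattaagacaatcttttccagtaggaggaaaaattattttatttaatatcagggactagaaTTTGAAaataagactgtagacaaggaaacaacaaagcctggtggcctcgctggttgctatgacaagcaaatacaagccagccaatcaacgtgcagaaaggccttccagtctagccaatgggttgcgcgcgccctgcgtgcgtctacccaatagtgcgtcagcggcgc

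Cdk1 held 2 CHR matches, ending 65 and 9 bases before the start, and 2 E2F matches. In Top2a 1 CHR match lay on each strand. Of the 20 called members, 17 had a promoter in the table; 6 of these held the CHR letters, as did 16% of all 32851 promoters searched, and 2 held the E2F letters, as did 4.28% of all promoters. A member counted where any of its promoters held the letters, while the shares are over single promoters, so they are in unlike units. A match of letters is a description and does not show a bound site.

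Genes of antigen presentation rose. All 17 genes in the list of the major histocompatibility complex (MHC) and antigen presentation were tested, 9 were called higher and 0 lower, against 2.09% of all tested probes called higher. All 17 had a higher mean at 5W, with a median change of 1.07. Without replicate 3 of 3W 8 were called, where 2.05% of all tested probes were called higher. With the slide as a block the median change of the list was 1.07. In the limma fit over all 24 arrays 7 had an adjusted p below 0.05, where 2.37% of tested probes did so in this direction. MHC class II molecules display peptides to helper T cells on macrophages, dendritic cells and B cells, and class I molecules do so to cytotoxic T cells on most cells.

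Cd74 and the class II genes H2-Aa, H2-Eb1 and H2-Ab1 changed most within the list. Cd74, the invariant chain that escorts class II molecules, had log2 signals of 9.80, 9.56 and 9.25 at 3W and 11.31, 12.21 and 11.83 at 5W. All 5W arrays were above all 3W arrays, and the change was 2.25 (SE 0.28, limma adjusted p = 0.0783), a 4.74-fold higher signal. H2-Aa, the class II alpha chain, went from 7.34, 7.25 and 7.06 to 8.23, 9.48 and 9.54, with replicate 1 of 5W the lowest of the 5W arrays and still above 3W. H2-Aa changed by 1.86 (SE 0.37), H2-Eb1 and H2-Ab1, class II beta chains, by 1.68 (SE 0.30) and 1.64 (SE 0.29), and Ciita, the class II transactivator, by 1.26 (SE 0.38). The other class II genes of the list, H2-DMa and H2-DMb1, were not called, with changes of 0.82 and 0.76. Among class I genes H2-K1 changed by 1.25, H2-D1 by 1.16 and Nlrc5, an activator of class I genes, by 1.19. B2m, the light chain of class I, stood at 14.81, 14.81 and 14.51 against 15.75, 16.03 and 15.56, a change of 1.07 (SE 0.20) that fell below 2-fold without replicate 3 of 3W (0.97) and with the slide as a block (0.85). H2 genes have close paralogs, so a probe may read more than its own gene. Tap1, Tap2 and Tapbp, which carry and load peptides, were not called, with changes of 0.32, 0.46 and 0.33, nor were the immunoproteasome subunits Psmb8, Psmb9 and Psmb10, with changes of 0.43, 0.76 and 0.12.

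Promoters of the called MHC genes are shown for the Y box, a motif of class II promoters searched as CTGATTGG on both strands and chosen after the values were seen. H2-Aa lies at chr17:34287824-34288073 (minus strand) and H2-Eb1 at chr17:34305617-34305866 (plus strand), with windows and capitals as above.
H2-Aa: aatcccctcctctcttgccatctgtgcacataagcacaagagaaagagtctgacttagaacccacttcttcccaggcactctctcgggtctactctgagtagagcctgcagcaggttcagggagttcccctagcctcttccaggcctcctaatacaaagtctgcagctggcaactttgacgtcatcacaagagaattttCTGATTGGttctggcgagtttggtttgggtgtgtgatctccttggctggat
H2-Eb1: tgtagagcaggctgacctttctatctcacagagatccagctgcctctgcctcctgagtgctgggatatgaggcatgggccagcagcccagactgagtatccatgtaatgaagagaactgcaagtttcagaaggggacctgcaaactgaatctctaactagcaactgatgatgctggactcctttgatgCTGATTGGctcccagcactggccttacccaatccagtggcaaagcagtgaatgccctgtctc

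The match ended 43 bases before the start of H2-Aa and 54 before that of H2-Eb1. Of 9 called members 5 had a promoter in the table and 3 held the letters, H2-D1 on the opposite strand, against 3.83% of all promoters, counted in the same unlike units.

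The macrophage list did not move with the MHC genes as a group. Its 10 markers (among them Cd68, Csf1r and Adgre1) were tested and 0 were called, where 3.17% of all tested probes were. The median change was 0.09, and the mean log2 signal was 11.61, 11.89 and 11.25 at 3W against 11.74, 11.50 and 11.85 at 5W. The B cell list averaged 6.90, 7.19 and 6.52 against 6.45, 7.09 and 6.49, and the T cell list 6.78, 6.62 and 6.41 against 7.43, 6.85 and 7.16, without overlap. Of 4 tested T cell markers 0 were called, with a median change of 0.51. Without replicate 3 of 5W 2 were called higher, as were 1320 of all 34256 tested probes. The part of these cells in the MHC values was not tested.

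Interferon-stimulated genes were mostly higher by small amounts. Of 28 tested, 4 were called higher and 0 lower, against 2.09% of all tested probes called higher, with a median change of 0.66, and 27 had a higher mean at 5W. Ifi27l2a, an interferon-induced mitochondrial protein, stood at 11.51, 11.03 and 11.93 at 3W and 14.61, 12.18 and 13.52 at 5W, a change of 1.95 (SE 0.59). Oas2, a sensor of double-stranded RNA, changed by 1.32, Ifit3, an antiviral RNA-binding protein, by 1.16 and Bst2, which tethers virus particles, by 1.03. The calls of Ifit3 and Bst2 were lost without replicate 3 of 5W, and that of Bst2 also without replicate 3 of 3W, where its change was 1.05 and its p no longer below 0.05. The list mean was 9.88, 9.77 and 9.67 at 3W and 10.78, 9.60 and 10.95 at 5W, so replicate 2 of 5W was below all 3W arrays. With the slide as a block, which gives no weight to replicates 1 and 2 of 5W, 18 of the 28 were called higher, as were 2.62% of all tested probes, and the median was 1.21. In the limma fit over all 24 arrays 0 of the 28 had an adjusted p below 0.05 and 4 were called.

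Complement genes C3 and C4b rose and the rest of their list was not called. C4b, a component of the classical pathway, was at 12.96, 13.02 and 13.09 at 3W and 14.59, 14.60 and 14.33 at 5W, a change of 1.49 (SE 0.17, limma adjusted p = 0.0732) with narrow groups that did not overlap. C3, on which the pathways converge, was at 11.00, 10.88 and 10.62 against 12.15, 12.44 and 12.59, a change of 1.56 (SE 0.20, limma adjusted p = 0.0822). Of 14 tested members 2 were called higher, against 2.09% of all tested probes, and the median change was 0.30.

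**Figure D2:**
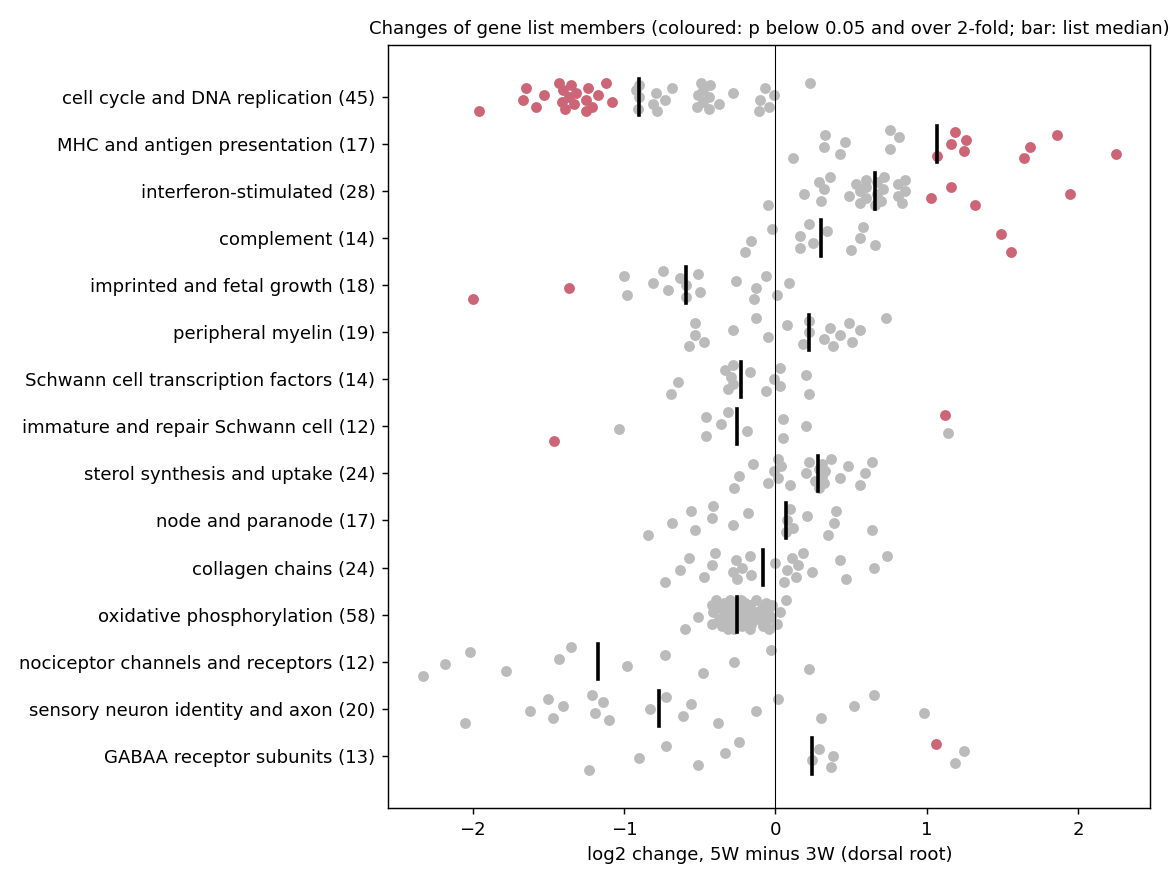
Log2 change from 3W to 5W (x axis) of each tested member of 15 gene lists, with the number tested in brackets. Coloured points passed p below 0.05 and 2-fold, grey points did not, and black bars are list medians, which lie at -0.90 for the cell cycle, 1.07 for MHC and 0.22 for peripheral myelin.

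The largest single rises were not members of these lists. Plk5, an atypical member of the polo-like kinases with a truncated kinase domain, had log2 signals of 9.72, 9.58 and 9.78 at 3W and 13.52, 14.99 and 14.02 at 5W. Plk5 changed by 4.48 (SE 0.37, limma adjusted p = 0.0397), a 22.4-fold higher signal; its probe lies at mm9 chr10:79828119-79828178. At P0 and 1W its mean signal in the dorsal root was 7.02 and 6.64, so 5W was the highest of the 4 ages. Rspo1, a secreted protein that strengthens Wnt signalling, went from 9.89, 9.79 and 9.95 to 12.23, 12.32 and 12.36, a change of 2.42 (SE 0.16, limma adjusted p = 0.0216). Rspo1 ranked just outside the 10 largest rises and is named for its adjusted p. The spread within each age was at most 0.08 (SD, n = 3).

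The long transcript A330015K06Rik and Vmn1r181, a vomeronasal receptor gene, also passed adjustment (limma adjusted p = 0.0216 for both). Vmn1r181 was not well above background at 3W (0 of 3 arrays) and was at 5.44, 6.09 and 5.64 at 5W, which gives a signal at least 2.01-fold higher. It entered the test only through 5W, and its adjusted p rests on 3W values below background. A330015K06Rik stood at 5.95, 6.32 and 6.21 against 9.43, 10.08 and 9.58, a change of 3.53 (SE 0.23).

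Other large rises included enzymes of lipid mediators and of sugar metabolism. Pla2g5, a secreted phospholipase that frees fatty acids, was at 8.95, 7.97 and 8.81 at 3W and 11.12, 11.41 and 10.83 at 5W, a change of 2.54 (SE 0.31). Ptgs2, the inducible cyclooxygenase, was not well above background at 3W and reached 6.97, 6.49 and 5.84 at 5W, a signal at least 3.29-fold higher (limma adjusted p = 0.0832). Ptgs2 entered the test only through 5W, and its adjusted p rests on 3W values below background. Akr1b3, aldose reductase, which turns glucose into sorbitol, went from 10.45, 10.31 and 10.06 to 13.20, 13.63 and 12.32, a change of 2.77 (SE 0.34). Clca3a1, a chloride channel accessory protein, changed by 2.49 (SE 0.30), and its 2 other tested probes changed in the same direction, 1 of them called. Gm40331 and Gm35995, predicted genes, changed by 3.36 (SE 0.70) and 3.00 (SE 0.36), and Gm40331 was above background on only 1 of 3 arrays at 3W.

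Mchr1, the receptor of melanin-concentrating hormone, was low at 3W between higher means at the earlier and later ages. Its log2 signal was 6.91, 5.87 and 6.76 at 3W and 9.90, 9.91 and 9.09 at 5W, a change of 3.12 (SE 0.36, limma adjusted p = 0.0732). The mean at P0 was 9.71 and at 1W 9.67, close to the 9.63 of 5W, so 3W was the low age, on a slide that P0 and 1W did not share. Akr1b3 and Clca3a1 were also lowest at 3W, with means of 10.27 and 6.10 against 10.42 and 6.33 at 1W. The ventral root gave means of 9.65, 9.50, 6.57 and 9.76 at the same ages.

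The largest falls were stefins, a cluster of cysteine protease inhibitors on chromosome 16 known from myeloid cells. Stfa1 stood at 9.05, 10.36 and 9.00 at 3W and was not well above background at 5W (0 of 3 arrays), which gives a signal at least 31.5-fold lower (limma adjusted p = 0.0397). It entered the test only through 3W, and its adjusted p rests on 5W values below background. BC100530, a stefin gene named for its adjusted p, was at 9.47, 10.63 and 9.28 against 4.78, 5.16 and 5.37, a change of -4.69 (SE 0.38, limma adjusted p = 0.0397). Stfa3, Stfa2l1 and Stfa2 changed by -3.65 (SE 0.64), -3.14 (SE 0.33) and -2.95 (SE 0.33). At 5W Stfa3 was well above background on 1 of 3 arrays and Stfa2l1 on 2 of 3, and with the slide as a block the change of Stfa3 was -2.34. These genes are near-identical copies, so the probes may share transcripts and are not independent readings. At P0 and 1W the mean of Stfa1 was 12.82 and 12.73.

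The neutrophil and marrow list did not fall with the stefins. S100a9 and S100a8, the abundant calcium-binding proteins of neutrophils, had changes of -0.20 (SE 0.23) and -0.21 (SE 0.26). The 9 tested members had a median change of 0.04, and the list mean was 11.27, 11.45 and 10.63 at 3W and 11.57, 11.13 and 11.26 at 5W. Elane, neutrophil elastase, was called higher, with 9.16, 9.41 and 8.98 against 11.19, 10.56 and 9.63 (change 1.28, SE 0.39), and with the slide as a block its change was 0.45 and not called. Red cell genes were lower too, and the 8 tested erythroid markers all had lower means at 5W, with a median of -0.59, and Slc4a1, the anion exchanger of red cells, was called at -1.50 (SE 0.35), while Hba-a1, an alpha globin, had a change of -0.15.

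Other falls were of single genes of varied roles. Anxa8, a calcium-dependent membrane-binding annexin, went from 10.35, 10.99 and 10.98 to 8.75, 8.35 and 8.66, a change of -2.19 (SE 0.24, limma adjusted p = 0.0732). H19, an imprinted long RNA of fetal tissue, went from 13.25, 12.66 and 13.72 to 11.68, 11.26 and 10.69, a change of -2.00 (SE 0.36), down from 17.49 at P0. Mest, another imprinted gene, changed by -1.36 (SE 0.27), or by -0.90 with the slide as a block. Of 18 tested imprinted and fetal growth genes these 2 were called lower and 0 higher, against 1.08% of all tested probes called lower, with a median of -0.59 and 16 lower means. Pif1, a DNA helicase, changed by -2.19 (SE 0.36), Gm5144, a predicted gene, by -2.12 (SE 0.33), and the other tested probe of Pif1 had a change of the opposite sign. At 5W Pif1 was well above background on only 1 of 3 arrays, so its change rests on dim values. Sytl2, an adaptor of secretory vesicles, was not well above background at 5W, a signal at least 2.40-fold lower, and within slide 4 its change was -0.72. Cdk5r2, a neuronal activator of Cdk5, stood at 8.69, 8.64 and 11.79 at 3W and 7.39, 7.69 and 7.23 at 5W; its high value was on the array with the highest sensory neuron markers, and its change was -2.27 with that array and -1.23 without it.

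**Figure D3:**
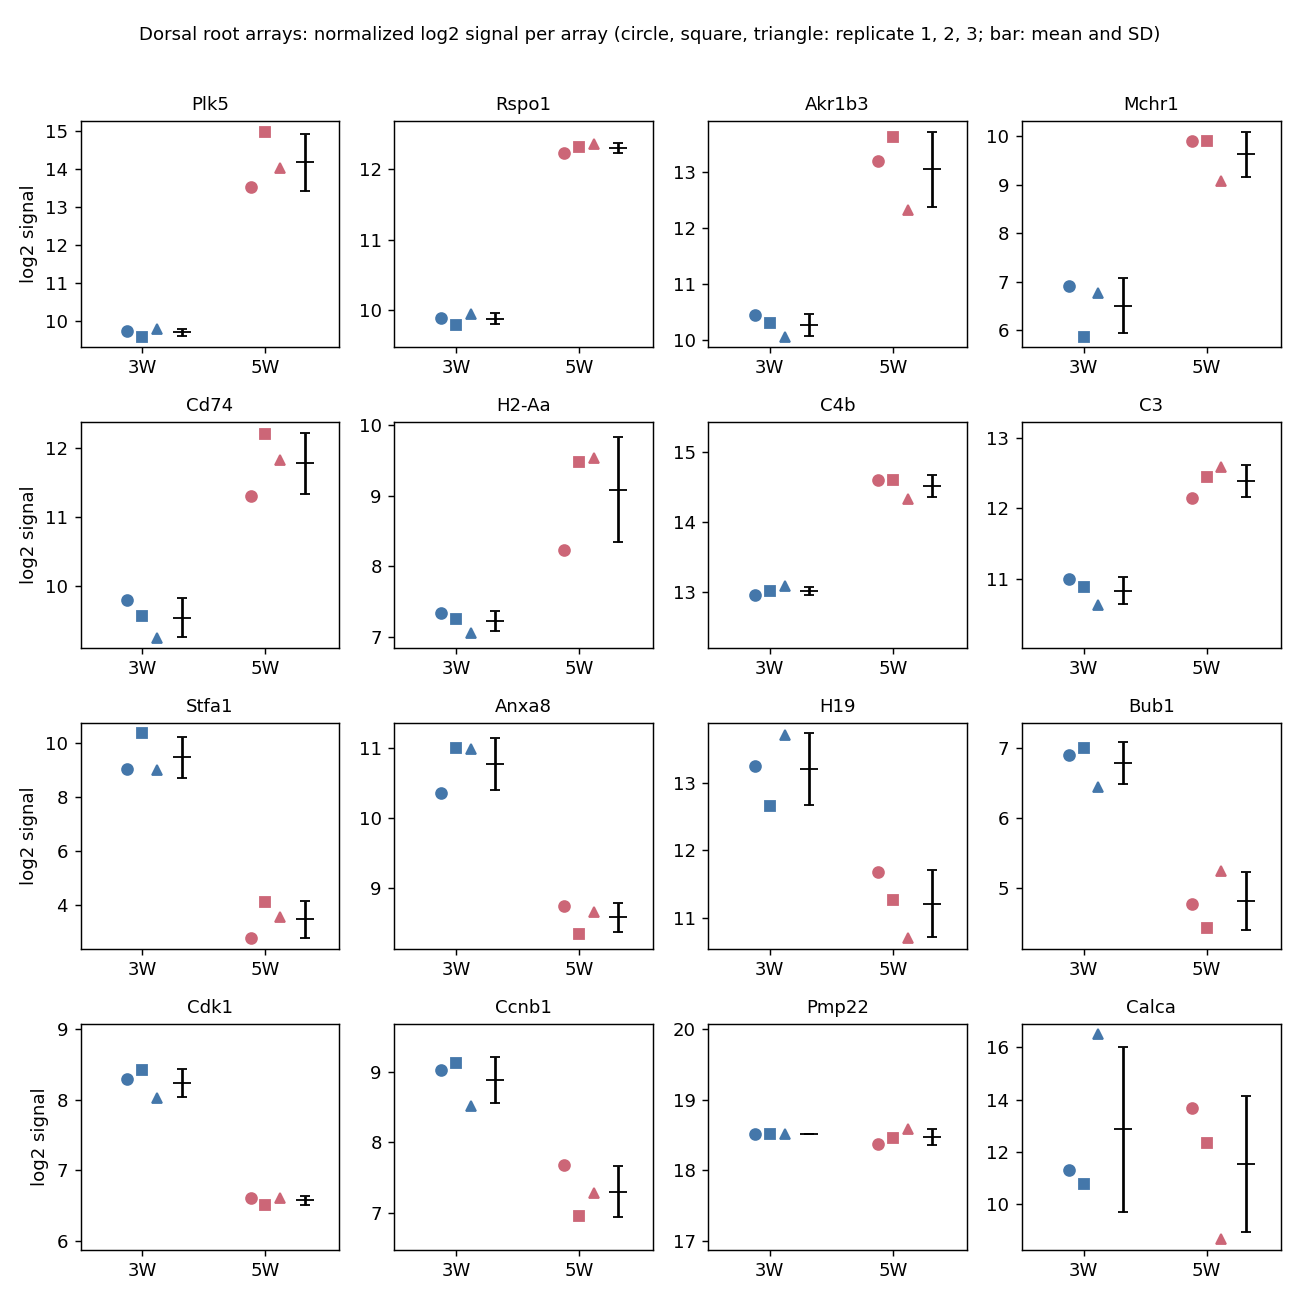
Log2 signal (y axis, not starting at 0) of 16 genes on each dorsal root array at 3W and 5W, with a symbol for each replicate and bars for mean and SD. The groups are apart for the genes called, while those of Pmp22 and Calca overlap, with Calca at 16.50 on replicate 3 of 3W.

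Myelin genes gave no called change. Of 19 tested genes of peripheral myelin 0 were called, where 3.17% of all tested probes were, so 0 in a list of this length is near that share. The median change was 0.22, and the list mean was 15.54, 15.51 and 15.25 at 3W and 15.51, 15.56 and 15.53 at 5W. Pmp22, a compact myelin protein, stood at 18.51 on all 3 arrays of 3W and at 18.37, 18.45 and 18.58 at 5W, and values near the top of a quantile-normalized scale are compressed. None of the 14 Schwann cell transcription factors, the 24 sterol genes, the 20 fatty acid and galactolipid genes, the 17 tested node and paranode genes or the 24 collagen chains was called, and their medians lay between -0.23 and 0.28. A change that is not called is not shown to be absent.

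Of 12 tested genes of immature and repair Schwann cells 1 was called higher and 1 lower, against 2.09% and 1.08% of all tested probes. Cdh19, a cadherin of the Schwann cell lineage, was at 10.47, 10.48 and 10.23 against 11.06, 12.20 and 11.27, a change of 1.12 (SE 0.32) that was 0.87 with the slide as a block. Ngfr, the low-affinity neurotrophin receptor, was at 13.09, 13.05 and 14.50 against 12.06, 11.28 and 12.92, highest on replicate 3 of 3W, and its change of -1.46 (SE 0.54) became -0.98 without that array and was then not called. Egr3, an immediate early transcription factor, changed by -1.37 (SE 0.33), or by -0.85 with the slide as a block. It was the single called member of 26 tested immediate early genes, against 1.08% of all tested probes called lower.

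Cells around the axons gave single called genes. Vwf, the von Willebrand factor of endothelium, was at 14.14, 14.16 and 13.44 against 15.15, 14.99 and 15.07, a change of 1.16 (SE 0.24) that was 0.92 and below 2-fold without replicate 3 of 3W, and its 2 other tested probes were not called. Vwf was the single called member of 10 tested endothelial markers, against 2.09% of all tested probes called higher, and their median was 0.27. Aldh1a2, the retinoic acid enzyme of meningeal fibroblasts, changed by -1.09 (SE 0.23), or by -0.66 with the slide as a block. It was the single called member of 10 tested fibroblast and meningeal markers, against 1.08% of all tested probes called lower, and their median was -0.53. Eln, elastin, changed by 1.04 (SE 0.37), or by 0.93 without replicate 3 of 3W and by 0.30 with the slide as a block. Eln was the single called member of 23 tested matrix genes other than collagens, against 2.09% of all tested probes called higher. The median of that list was -0.15, and 12 members had a lower mean. Hapln2, a matrix link protein of central nodes, changed by 1.19 (SE 0.30), or by 0.63 with the slide as a block. It was the single called member of 8 tested oligodendrocyte markers, against 2.09% of all tested probes called higher. Their median was -0.08, and 5 had a lower mean. Fabp4 and Pck1, fat cell genes, changed by -1.11 (SE 0.30) and -1.20 (SE 0.33), and the other tested probe of Fabp4 had a change of the opposite sign. Without replicate 3 of 3W the change of Fabp4 was -0.95. Of 8 tested adipocyte markers Fabp4 and Pck1 were called lower and 0 higher, against 1.08% of all tested probes called lower. The list median was -0.48, and 3 markers had a higher mean, among them Plin1 at 0.78 and Retn at 0.80. In the limma fit over all 24 arrays 0 of the 8 were called.

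Genes of the sensory neurons themselves did not give a readable change. Of 9 tested sensory neuron markers 0 were called, where 3.17% of all tested probes were. Their median change was -1.50 over all 6 arrays, -0.15 without replicate 3 of 3W and -3.59 within slide 4. Scn10a, a sodium channel of pain fibres, stood at 9.18, 8.95 and 14.03 at 3W and 10.72, 9.13 and 5.79 at 5W, and Prph, the intermediate filament peripherin, at 10.95, 10.35 and 15.92 against 12.42, 10.77 and 9.54. For both genes the range over the arrays of 3W was larger than the difference between the ages. Of the neuropeptides 0 of 10 tested were called, and of the nociceptor channels 0 of 12, also near that share. Among 13 tested GABAA receptor subunits only Gabra3 was called, against 2.09% of all tested probes called higher. Gabra3 was at 9.19, 8.82 and 8.83 against 9.42, 10.62 and 9.96 (change 1.06, SE 0.32). It was highest on the array with the highest interneuron markers. Its change was 1.00 without replicate 3 of 3W, no longer past 2-fold, and 1.01 with the slide as a block.

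Of the 9 genes chosen for RT-qPCR 0 were called, where 3.17% of all tested probes were. Slit2, a guidance ligand, was at 12.19, 12.13 and 11.79 against 12.85, 12.71 and 12.84, without overlap, a change of 0.76 (SE 0.18, unadjusted p = 0.00443 in limma) under 2-fold. Npy, Gabrb2, Nlgn1, Unc13c and Ncam1 had changes of between -0.24 and 0.61.

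**Figure D4:**
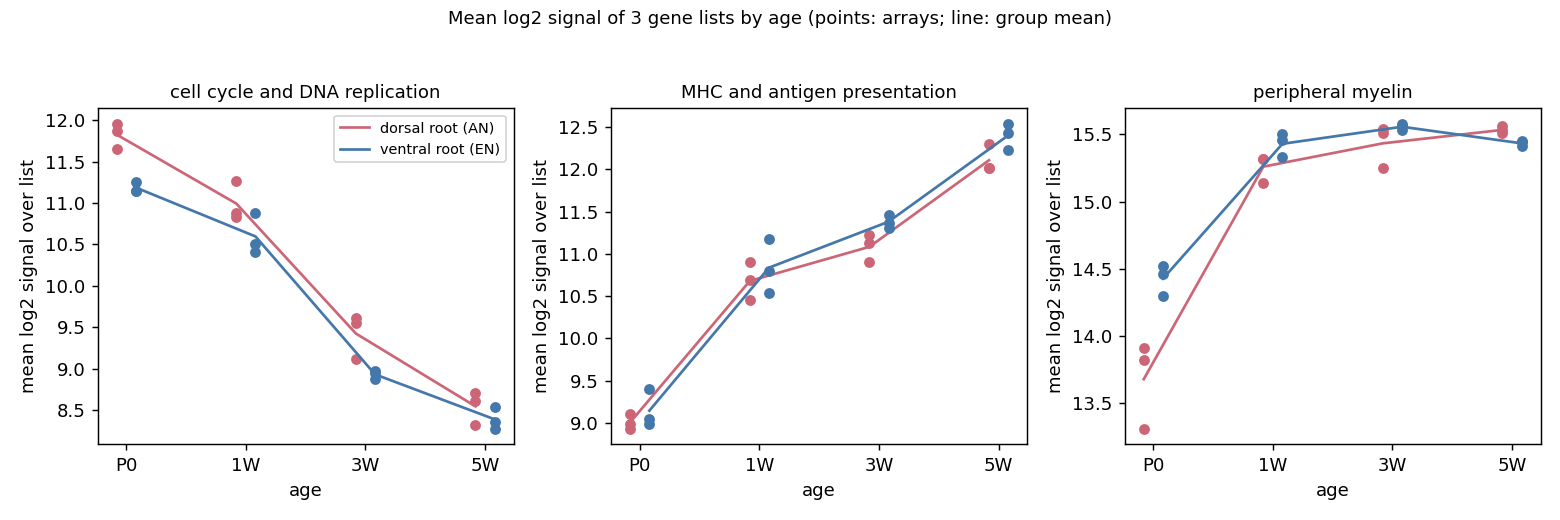
Mean log2 signal (y axis) of 3 gene lists at P0, 1W, 3W and 5W in the dorsal and ventral root, with a point for each array and lines through group means. The group means of the cell cycle list fall at every step and those of the MHC list rise, while the myelin list overlaps between 3W and 5W in the dorsal root (15.25 to 15.56). The arrays of P0 and 1W shared no slide with those of 3W.

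In group means the fall and the rise continued courses that ran from birth. The arrays of P0 and 1W shared no slide with those of 3W, so the step from 1W to 3W cannot be told apart from slide. In the dorsal root the cell cycle list averaged 11.65, 11.96 and 11.87 on the arrays of P0, 10.83, 10.88 and 11.27 at 1W, 9.55, 9.61 and 9.11 at 3W and 8.70, 8.32 and 8.61 at 5W. The MHC list averaged 9.11, 8.93 and 8.99 at P0, 10.45, 10.69 and 10.90 at 1W, 11.22, 11.13 and 10.90 at 3W and 12.01, 12.01 and 12.30 at 5W. In both lists the arrays of 5W did not overlap those of 3W.

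The ventral root was compared over the same interval. There 994 of 33135 tested probes (3.00%) were called, and of 32508 probes tested in both roots 390 were called in the same direction in both and 0 in opposite directions. The 390 were 42.3% of the 921 called in the dorsal root and 42.5% of the 917 called in the ventral root. The roots share animals and slides, and arrays of the same age and number deviated together, so the overlap is not independent support. Plk5 changed by 3.12 in the ventral root, Rspo1 by 2.02, Akr1b3 by 2.64, Cd74 by 2.22, Anxa8 by -1.61 and H19 by -1.74. Over the probes tested in the dorsal root, 1.62% were called higher and 1.45% lower in the ventral root. The cell cycle list had 5 of 45 members called lower there and a median of -0.55, and the MHC list 6 of 17 called higher and a median of 0.93.

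The difference between the roots was tested directly as the AN change minus the EN change. There 148 of 34256 probes (0.432%) were called, 88 with a higher AN change, 502 had an unadjusted p below 0.05, and 0 passed limma's adjusted p. With the number within each age as a block, 226 were called and 0 passed adjustment. The probes named for the largest differences were Vmn1r181, Hoxb8, Slc6a5, Ppil4, Slc26a7 and Fam131b, all with limma adjusted p = 1. Each missed the background test on some arrays. In the ventral root Vmn1r181 and Slc26a7 passed it on 0 arrays at both ages, Slc6a5 on 0 at 5W and Ppil4 and Fam131b on 0 at 3W, so no size is given for these differences. Slc6a5, the glycine transporter of inhibitory interneurons and itself 1 of the 6 interneuron markers, changed by 0.60 (SE 0.80) in the dorsal root and was not called there. C4b and C3 differed by 0.85 (SE 0.20, limma unadjusted p = 0.00147) and 1.02 (SE 0.32, unadjusted p = 0.00932), with ventral root changes of 0.64 and 0.54, and adjusted p = 1 for both. Cdk1 differed by -0.83 (SE 0.22, adjusted p = 1 in limma).

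**Figure D5:**
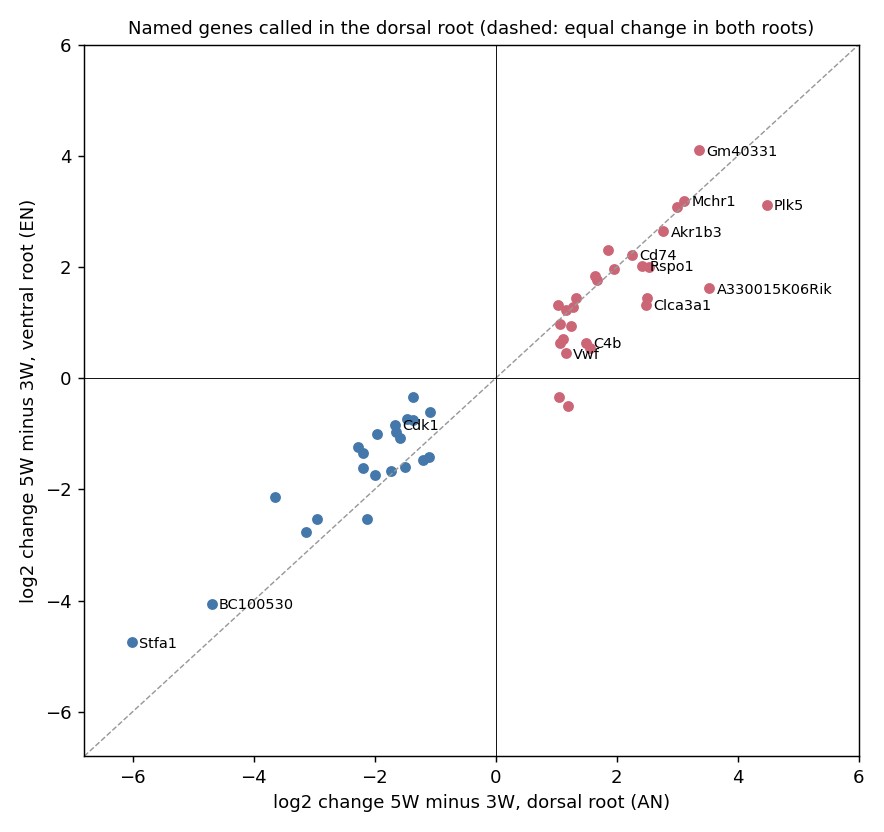
Log2 change from 3W to 5W in the dorsal root (x axis) and the ventral root (y axis) for 50 named genes called in the dorsal root, red where higher and blue where lower, leaving out those named only for the difference between roots and those that passed the background test on 0 ventral root arrays. Of these, 48 changed in the same direction in both roots, the exceptions being Eln and Hapln2, and Plk5 lies below the line of equal change. In the dorsal root Stfa1 is drawn from 5W values below background and Ptgs2 from 3W values below background.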

How the data were processed

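RNA from dorsal (AN) and ventral (EN) roots was hybridised to 1-colour Agilent mouse arrays, 24 in all. Per the labels the images were read with Feature Extraction 10.7.1.1; the scanner files, as the authors deposited them, hold raw mean, local background and processed intensity values per spot. The log2 table that the authors deposited was quantile normalized by them in GeneSpring, and each column correlated with its own array's scanner signal at 0.9955 to 0.9999 and with other arrays at 0.9901 or less. Each column had a median of 6.31, and the fixed median means that only relative changes can be read. The table covers 56605 gene probes; 41700 carried a gene name found in the reference gene table. The precision is limited by 3 arrays per group.

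Groups and replicate numbers were taken from the labels. For 5W against 3W, limma 3.58.1 (lmFit and eBayes, R 4.3.3) was fitted to the 6 AN arrays without covariates, on probes well above background on all 3 arrays of either age; a probe with several spots counted as above background where at least as many spots passed as failed. Calls used unadjusted p below 0.05 and fold above 2, as in the study's methods, with Benjamini-Hochberg adjustment beside them. EN and the difference between roots were fitted the same way. "At least" folds set the brighter group's mean against the dimmer group's, each array raised to its lowest signal well above background, and are given where no array of the dimmer age was above background. Scripts were tested on simulated data. Alternatives covered each array left out, replicate, slide and scan batch blocks, more arrays, weights, other scalings, normexp with an offset of 50, and other filters.

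Replicate numbers did not pair AN arrays of 3W and 5W (correlations of deviations 0.01, -0.24 and -0.35), but AN and EN arrays of the same age and number deviated together (0.20, 0.13 and 0.24 at 3W and 0.56, 0.61 and 0.48 at 5W).

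Genes were named by rule: the 10 largest rises and falls called with and without replicate 3 of AN 3W and without overlap; in each of 46 gene lists up to 4 called members with the largest change and 3 with the highest signal; the 9 RT-qPCR genes; and the 3 largest differences between roots each way. Other genes are named for their adjusted p, for their list's counts or where said. A list member was read through its brightest tested probe. The members and lists were chosen with earlier results of these data known. Probe positions are mm9, per the file headers, and promoters come from RefSeq on GRCm38.p6. Some results are not reported here.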

Additional observations from a re-analysis of the deposited data

How the results depend on the processing

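The counts rest on 3 arrays a group, and the adjusted calls on less than that. Leaving out arrays singly, the called probes ranged from 1051 to 2084, those higher from 616 to 1320 and those lower from 354 to 764; the upper ends belong to the fit without AN 5W replicate 3, and without any other array the total was at most 1125. The number with an adjusted p below 0.05, 6 with all arrays, was 0 without each array (lowest and highest 0), with the replicate block, with the slide or scan batch as a block and without a filter on dim probes; it was 549 with the 12 AN arrays in the fit, 1347 with all 24, 1027 with array quality weights and 1626 with the slide as a block over all 24, a setting chosen after seeing the data. The replicate block called 1110 probes. The slide block and the scan batch block, the same fit for these arrays, called 627 lower, and the slide block over 24 arrays 787 lower. Array weights, which gave AN 3W replicate 3 a weight of 0.327, called 1762 with 757 lower. Normexp background correction called 362, with 261 higher and 101 lower. Taking adjusted in place of unadjusted p left 6 calls, and within slide 4, by fold alone and with no test, 2679 probes passed 2-fold. Ventral root calls ranged from 679 to 2031 without each array (2031 without EN 5W replicate 3) and were 655 with probes above background on all arrays. The difference between roots gave 226 calls with the replicate block within each age (chosen after seeing the data), 48 with probes above background on all 12 arrays, and 130 to 314 without each array, with 314 without EN 5W replicate 1, 286 without AN 5W replicate 3 and 248 without AN 3W replicate 1. Sst, with a main change of 0.35, reversed to -1.25 with the slide or scan batch as a block, and Dct, with a main change of 0.59, to -1.98 with the slide as a block over all 24 arrays. The causes were not tested. Of 55 named probes called, 8 were no longer called without AN 3W replicate 3. The largest rises and falls could not be lost there, since the naming rule required that call. With the slide as a block over all 24 arrays 14 were no longer called, and 16 with normexp, which moved dim probes such as Bub1 to -0.75. Other alternatives kept the called counts within 1.5 times.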
